A study of Mus musculus with 10 samples.

Results

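The genes described here are 40 genes of DNA replication and S phase, given as a list of symbols and found in the count tables by matching Ensembl identifiers to GENCODE mouse symbols. Each of the 40 symbols matched 1 identifier of the 41091 in the tables, and all 40 had enough counts to be tested. The libraries came from regenerating olfactory epithelium of adult C57BL6 mice, taken 9 days after a lesion with methimazole, a drug that strips the epithelium, and grown as adherent cultures on gelatin with EGF, FGF2 and heparin. All cultures received lentivirus: 3 libraries (shCBX8 replicates 1, 2 and 6) carried a short hairpin against Cbx8, 3 (shCBX7 replicates 1, 2 and 5) a hairpin against Cbx7, and 4 (shCTR replicates 1, 2, 5 and 6) a non-targeting scramble hairpin. CBX7 and CBX8 are subunits of Polycomb repressive complex 1, a chromatin regulator that keeps genes silent. No source used here says whether replicates came from separate animals or cultures, so the p-values describe variation among these libraries, and that variation may be technical.

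DNA replication is licensed in G1, when CDC6 and CDT1 load the MCM2-7 ring onto origins, and fires in S phase, when CDC45 and GINS join the ring to form the active helicase. DNA polymerase alpha-primase then lays down primers, replication factor C loads the PCNA clamp, polymerases delta and epsilon extend the strands, and FEN1 and DNA ligase I finish the Okazaki fragments. Many of these genes are targets of E2F transcription factors and are transcribed around the G1/S transition, so that their RNA is commonly read as a sign of cycling cells.

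The promoter sequences of this group can be shown beside the values, since E2F sites are a textbook feature of replication genes. RefSeq start sites (GRCm38.p6) were given for 32 of the 40 genes, with 37 promoters in all, each 300 bases long (250 before and 50 after the start). Each window was searched on both strands for the E2F-type words TTTCGCGC, TTTGGCGC, TTTCCCGC and TTTGCCGC. At least 1 word was found in 12 of the 37 promoters (32.4%), against 744 of all 32851 mouse promoters of that length (2.26%). The word TTTGAA, the core of the CHR element of many mitotic promoters, was found in 5 of 37 (13.5%) against 17.9% of all promoters, and CCAAT in 20 of 37 (54.1%) against 37.4%. The 12 genes with an E2F-type word were Cdc6, Cdt1, Mcm3, Mcm5, Mcm6, Mcm7, Gins3, Pola1, Pold1, Pole2, Rfc3 and Lig1. Upstream stretches of Mcm5 and Mcm6, which hold 2 and 3 words with overlaps, are printed beside those of Mcm2 and Rfc1, which hold none and are genes whose RNA differed in the tests below. They run 5′ to 3′ on the gene's strand and start 250 bases before the RefSeq start, and capitals mark the E2F-type words. The Rfc1 stretch ends 32 bases before the start, where the GENCODE gene model begins.
Mcm5 (chr8:75109259-75109508, plus strand): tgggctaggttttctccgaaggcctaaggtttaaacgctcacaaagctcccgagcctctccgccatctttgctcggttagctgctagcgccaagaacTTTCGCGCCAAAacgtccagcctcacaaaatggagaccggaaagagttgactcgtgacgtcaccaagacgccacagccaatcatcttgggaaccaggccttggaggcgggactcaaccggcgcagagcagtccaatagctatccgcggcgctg
Mcm6 (chr1:128359706-128359955, minus strand): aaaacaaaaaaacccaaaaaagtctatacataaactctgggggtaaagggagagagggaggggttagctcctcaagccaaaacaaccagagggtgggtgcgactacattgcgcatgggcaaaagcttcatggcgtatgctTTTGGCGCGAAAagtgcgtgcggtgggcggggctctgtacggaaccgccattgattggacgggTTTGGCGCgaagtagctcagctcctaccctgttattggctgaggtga
Mcm2 (chr6:88898781-88899030, minus strand): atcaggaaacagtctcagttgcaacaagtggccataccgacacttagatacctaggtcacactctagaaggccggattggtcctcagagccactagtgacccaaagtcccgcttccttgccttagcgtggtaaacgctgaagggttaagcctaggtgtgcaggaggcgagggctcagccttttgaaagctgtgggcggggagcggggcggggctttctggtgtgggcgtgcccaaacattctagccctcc
Rfc1 (chr5:65335671-65335889, minus strand): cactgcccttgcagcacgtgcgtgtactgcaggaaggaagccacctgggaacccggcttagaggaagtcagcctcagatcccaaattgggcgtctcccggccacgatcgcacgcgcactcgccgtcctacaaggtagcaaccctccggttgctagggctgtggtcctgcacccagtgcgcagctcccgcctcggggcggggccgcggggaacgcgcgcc
In Mcm5 the words lay at -153 and -149 and share bases, and in Mcm6 at -110 and -106, which also share bases, and at -47, counted with the start at 0. The words are a description of these letters and not evidence of binding.

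Depth, as reverse-strand reads counted in genes, ran from 22763014 to 50463172 per library, and the least covered of the 40 genes, Gins1, had at least 28 reads in every library. Levels below are CPM, gene counts divided by library size after scaling between libraries, listed in replicate order. The targeted genes were checked first. Cbx8 had 4.99, 5.14 and 4.71 CPM in shCBX8 libraries, against 12.4, 15.9, 10.2 and 10.8 CPM in shCTR libraries (log2 fold change -1.31, SE 0.22, adjusted p = 0.00416, edgeR quasi-likelihood test). The groups did not overlap. Cbx7 had 3.64, 8.02 and 13.1 CPM in shCBX7 libraries, against 17.7, 16.4, 13.5 and 5.30 CPM in shCTR libraries, and the groups overlapped (log2 fold change -0.67, SE 0.48, adjusted p = 0.929). A fall of the Cbx7 transcript was thus not detected in the shCBX7 libraries, which are named by their label here. Defining genes of mature olfactory epithelium were scarce: Omp of olfactory neurons stood at 0.0891 to 0.605 CPM and Cyp2g1 of sustentacular cells at no more than 1.94 CPM, whereas the horizontal basal cell genes Krt5 and Krt14 were present in every library. Marker levels and background moved with the groups. The summed level of 18 fibroblast markers was 554 to 3669 CPM in shCBX8, 6203 to 20056 in shCBX7 and 6592 to 35976 in shCTR libraries, and no marker was under 0.1 CPM in every library. That of 7 horizontal basal cell markers was 2761 to 6207 CPM in shCBX8, 296 to 1354 in shCBX7 and 350.3 to 1619 in shCTR libraries. The sustentacular list summed to 3508 to 9822 CPM in shCBX8, 95.02 to 1629.6 in shCBX7 and 122 to 1543 in shCTR libraries. Most of that sum came from the keratins Krt8 and Krt18, the 2 of its 5 tested genes that were called higher in shCBX8 against shCTR. The globose progenitor list summed to 72.1 to 159 CPM in shCBX8, 24.6 to 46.01 in shCBX7 and 22.6 to 43.4 in shCTR libraries, with 3 of 5 tested genes called higher (Hes6, Sox2 and Lgr5) and Neurod1 called lower against shCTR. The smooth muscle and pericyte list summed to 1649 to 5322 CPM in shCBX8, 438 to 1219 in shCBX7 and 505 to 1632 in shCTR libraries, and Rgs5 was the 1 of its 5 genes called, higher in shCBX8 against shCTR. Sums of the neuronal, ensheathing, endothelial and immune lists overlapped between shCBX8 and shCTR libraries. Each of these lists held 1 called gene against shCTR, lower in the neuronal and ensheathing lists and higher in the endothelial and immune lists. All 6 tested neuronal genes had negative estimates, with a median log2 fold change of -1.19. The forward-strand background over 1455 receptor genes was 12.2 to 24.5 CPM in shCBX8, 10.1 to 14.3 in shCBX7 and 28.3 to 92.3 in shCTR libraries. Their part in the results was not tested, apart from the settings named beside each result, and in bulk samples fewer cells of a type and less RNA per cell cannot be told apart.

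Against shCTR, 4 of the 40 genes were higher in shCBX8 libraries and none was lower, at an adjusted p under 0.05 in edgeR's quasi-likelihood test. The 4 were Rfc1 and Pcna of the clamp and its loader, Mcm2 of the replicative helicase and Fen1, the nuclease that removes Okazaki primers. The same test called 32.9% of all 16669 genes, 17.0% higher and 15.9% lower, so 4 of 40 is a smaller share than that of all genes. The median log2 fold change of the 40 genes was 0.02, against -0.01 over all genes, and 22 were positive and 18 negative. Levels of 8 genes were higher in every shCBX8 library than in any shCTR library and none was lower in all, against 22.9% and 19.5% of all genes. Among the 40, the unadjusted p was under 0.05 for 6 higher and 3 lower genes, against 22.9% and 22.6% of all genes.

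**Figure D1:**
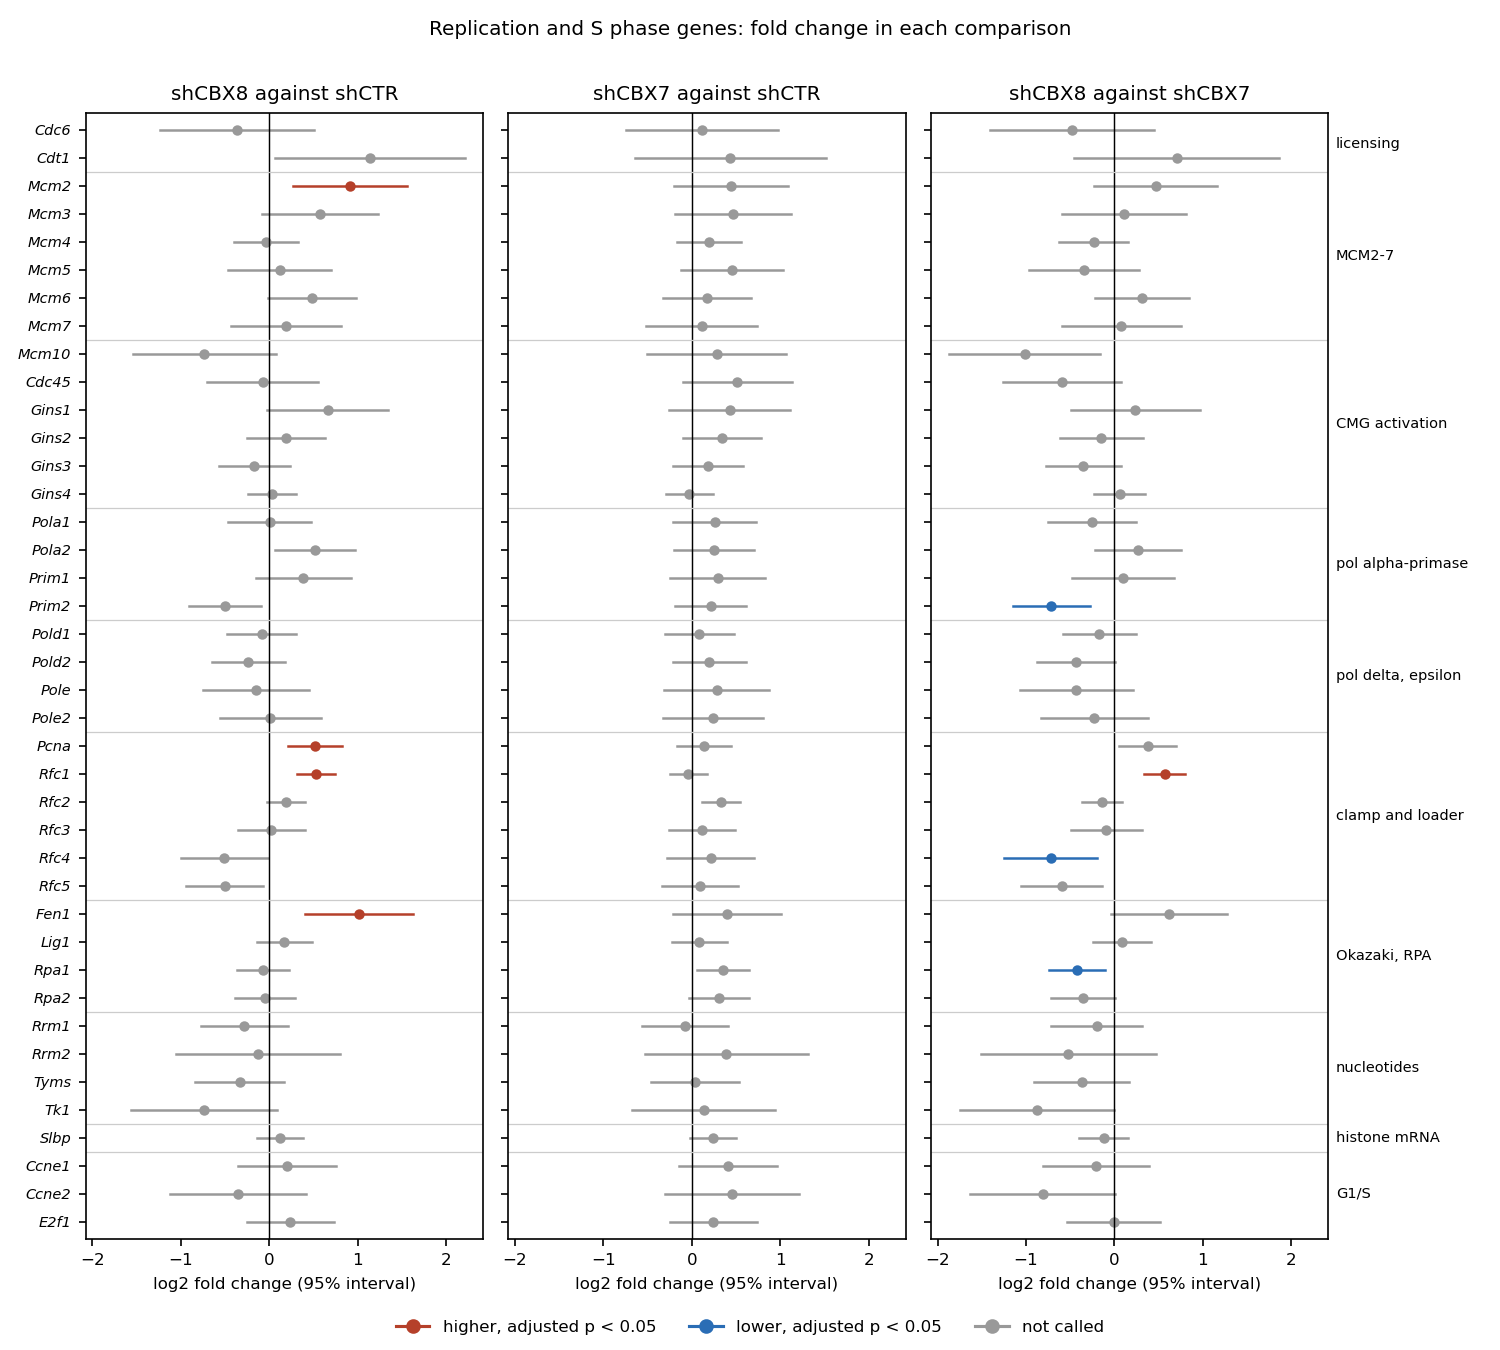
Log2 fold change (x axis) of the 40 genes (rows, grouped by role) in shCBX8 against shCTR, shCBX7 against shCTR, and shCBX8 against shCBX7; points are edgeR estimates, bars 95% intervals, and colour marks an adjusted p under 0.05. Calls are few in the panels that involve shCBX8 and absent from the panel of shCBX7 against shCTR, where 37 of 40 points lie above 0.

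Among the licensing genes, Cdt1, which brings the MCM ring to origins, had 18.1, 30.1 and 17.7 CPM in shCBX8 libraries, against 4.75, 4.96, 13.6 and 16.6 CPM in shCTR libraries. The groups did not overlap, and shCTR replicates 1 and 2 were far below replicates 5 and 6. Its log2 fold change of 1.14 (SE 0.48) was the largest of the 40, but the adjusted p was 0.0946, and with the background level as a covariate the estimate turned to -0.40 (adjusted p = 0.627). It had 17.3, 8.02 and 15.1 CPM in shCBX7 libraries, overlapping the shCTR range (log2 fold change 0.43, adjusted p = 0.943). Cdc6, the ATPase that loads MCM with Cdt1, had 3.27, 7.52 and 2.26 CPM in shCBX8, 6.95, 6.51 and 4.71 CPM in shCBX7 and 4.83, 4.81, 7.08 and 5.67 CPM in shCTR libraries. The shCBX8 group held both the highest and the lowest of these 10 values, a ratio of 3.33 between replicates 2 and 6, and the log2 fold change against shCTR was -0.37 (SE 0.39, adjusted p = 0.485).

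In the helicase ring, Mcm2 had 47.8, 49.4 and 48.6 CPM in shCBX8, 44.8, 30.7 and 30.0 CPM in shCBX7 and 22.8, 13.7, 35.4 and 31.7 CPM in shCTR libraries. The 3 shCBX8 libraries lay above all others and within a coefficient of variation of 1.63%, the lowest of the 40 genes in that group. Mcm2 (ENSMUSG00000002870, chromosome 6, 88883474 to 88898780, minus strand, GRCm38) rose 1.88-fold in shCBX8 against shCTR (log2 fold change 0.91, SE 0.29, adjusted p = 0.0378). In shCBX7 the estimate against shCTR was 0.44 (SE 0.29, adjusted p = 0.929). Mcm6 had 62.4, 76.4 and 59.4 CPM in shCBX8, 59.1, 47.7 and 52.4 CPM in shCBX7 and 44.5, 39.7, 69.5 and 35.4 CPM in shCTR libraries. Here shCTR replicate 5 overlapped the shCBX8 libraries, and the log2 fold change of 0.48 (SE 0.22) had an adjusted p of 0.117. For the other 4 subunits the log2 fold changes of shCBX8 against shCTR ran from -0.04 for Mcm4 to 0.57 for Mcm3, with none called. Those of all 6 subunits in shCBX7 were positive, from 0.11 for Mcm7 to 0.47 for Mcm3, and none was called.

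The 6 ring subunits are present in equal number in the protein complex, but their RNA was not equal. Per kilobase of the longest coding transcript in GENCODE M21, mean levels in shCTR libraries were 17.3 CPM for Mcm7, 14.8 for Mcm4 and 10.9 for Mcm6, against 7.68 for Mcm2, 5.15 for Mcm3 and 4.36 for Mcm5. In shCBX8 libraries Mcm2 reached 14.4 CPM per kilobase, close to the 14.5 of Mcm4. In shCBX7 libraries it stood at 10.4, against 17.0 for Mcm4. The transcript expressed in these cultures may be a shorter one, so levels per kilobase, here and below, compare genes only roughly. GENCODE places the microRNA genes Mir25 and Mir93 inside Mcm7 on the same strand. The deposited counts keep ambiguous reads in a separate row, so reads of that overlap may be missing from the Mcm7 count.

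**Figure D2:**
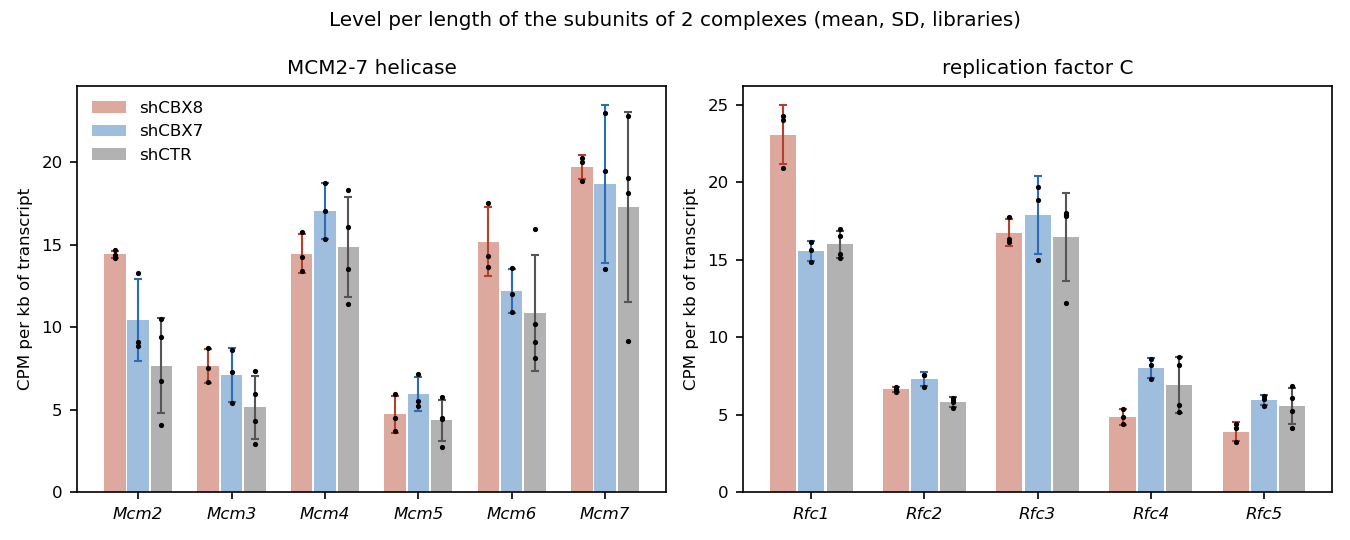
CPM per kilobase of transcript (y axis) for the subunits of the MCM2-7 ring and of replication factor C in shCBX8, shCBX7 and shCTR libraries; bars are group means, error bars SDs (n = 3, 3 and 4) and points libraries. Mcm2 and Rfc1 are the subunits called in shCBX8 against shCTR, and all of their shCBX8 libraries lie above every shCTR library.

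Among the genes of helicase activation, Mcm10, which helps to activate the loaded helicase, had 2.51, 5.23 and 1.72 CPM in shCBX8, 7.27, 6.24 and 5.59 CPM in shCBX7 and 5.15, 4.26, 6.58 and 4.98 CPM in shCTR libraries. Replicates 1 and 6 of shCBX8 were the lowest of the 10 and replicate 2 lay inside the shCTR range. The log2 fold change of shCBX8 against shCTR was -0.74 (SE 0.36, adjusted p = 0.140). Gins1, a GINS subunit, had 4.38, 3.19 and 3.40 CPM in shCBX8, 3.73, 3.48 and 2.12 CPM in shCBX7 and 2.73, 1.40, 2.49 and 2.59 CPM in shCTR libraries. Its shCBX8 libraries lay above all shCTR libraries (log2 fold change 0.66, SE 0.30, adjusted p = 0.120). Gins2, Gins3, Gins4 and Cdc45 had log2 fold changes of -0.17 to 0.19 in shCBX8 against shCTR. In shCBX7, Cdc45 had the largest log2 fold change of the 40 against shCTR, 0.51 (SE 0.28, adjusted p = 0.929), and lay above every shCTR library. GINS RNA was also unequal among its subunits: in shCTR libraries Gins4 stood at 25.2 CPM per kilobase and the other 3 at 2.12 to 3.18. Without division by length, the shCTR means were 34.0 CPM for Gins4 and 2.30, 12.4 and 6.02 CPM for Gins1, Gins2 and Gins3.

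Of the priming enzymes, Prim2, the large primase subunit, had 11.8, 18.3 and 12.6 CPM in shCBX8, 25.1, 24.1 and 20.6 CPM in shCBX7 and 21.6, 18.9, 22.2 and 17.7 CPM in shCTR libraries. Replicate 2 of shCBX8 overlapped the shCTR libraries, and the log2 fold change against shCTR was -0.50 (SE 0.18, adjusted p = 0.0596). Pola2, the accessory subunit of polymerase alpha, had 20.7, 24.2 and 19.0 CPM in shCBX8, 19.3, 16.01 and 17.7 CPM in shCBX7 and 17.1, 10.6, 18.6 and 13.2 CPM in shCTR libraries. The shCBX8 libraries lay above all shCTR libraries, by a small gap (log2 fold change 0.52, SE 0.20, adjusted p = 0.0737). Pola1, the catalytic subunit, and Prim1, the primase catalytic subunit, had log2 fold changes of 0.00 and 0.39, with adjusted p of 0.989 and 0.235. Within the 4-subunit enzyme, Pola2 and Prim2 thus had estimates of opposite sign, neither of them called.

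For the replicative polymerases, Pold2, the second subunit of polymerase delta, had 11.3, 17.7 and 12.2 CPM in shCBX8, 19.7, 17.5 and 18.5 CPM in shCBX7 and 16.04, 14.3, 19.2 and 15.2 CPM in shCTR libraries. Pole, the catalytic subunit of polymerase epsilon, had 10.3, 14.7 and 8.23 CPM in shCBX8, 14.3, 16.6 and 13.8 CPM in shCBX7 and 13.7, 7.71, 15.5 and 12.2 CPM in shCTR libraries. Both overlapped between groups, and replicate 2 was the highest shCBX8 library for each. Their log2 fold changes in shCBX8 against shCTR were -0.24 (SE 0.18, adjusted p = 0.342) and -0.15 (SE 0.27, adjusted p = 0.687). Pold1, the catalytic subunit of polymerase delta, and Pole2 had -0.09 and 0.01.

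At the clamp and its loader, Rfc1, the large subunit of replication factor C, had 114, 99.2 and 115 CPM in shCBX8, 76.8, 70.5 and 74.4 CPM in shCBX7 and 78.4, 71.7, 80.6 and 73.0 CPM in shCTR libraries. Every shCBX8 library lay well above the other 7, which spanned 70.5 to 80.6 CPM. Rfc1 (ENSMUSG00000029191, chromosome 5, 65261850 to 65335670, minus strand, GRCm38) rose 1.44-fold in shCBX8 against shCTR (log2 fold change 0.53, SE 0.09, adjusted p = 0.00505, edgeR). Pcna, the sliding clamp, had 79.2, 69.4 and 71.7 CPM in shCBX8, 66.7, 50.5 and 52.6 CPM in shCBX7 and 52.3, 43.6, 58.4 and 51.2 CPM in shCTR libraries. The shCBX8 libraries were again above all others, with shCBX7 replicate 1 the nearest. Pcna (ENSMUSG00000027342, chromosome 2, 132249162 to 132253314, minus strand, GRCm38) rose 1.43-fold in shCBX8 (log2 fold change 0.52, SE 0.13, adjusted p = 0.0195). Pcna was the most abundant of the 40 per kilobase in every group, at means of 48.4 CPM in shCBX8, 37.3 in shCBX7 and 33.9 in shCTR libraries, and its reads may be shared with the pseudogenes Pcna-ps1 and Pcna-ps2.

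None of the 4 small subunits of the loader was called in shCBX8 against shCTR. Rfc2 had 33.2, 33.9 and 32.4 CPM in shCBX8, 37.9, 37.8 and 33.9 CPM in shCBX7 and 29.1, 27.1, 30.5 and 29.8 CPM in shCTR libraries. Every shCBX8 and shCBX7 library lay above all shCTR libraries. The log2 fold change against shCTR was 0.19 (SE 0.09, adjusted p = 0.150) in shCBX8 and 0.33 (SE 0.09, adjusted p = 0.436) in shCBX7. Rfc3, Rfc4 and Rfc5 had 0.02, -0.51 and -0.51 in shCBX8 against shCTR, with adjusted p of 0.928, 0.103 and 0.0701. Per kilobase, mean Rfc1 was 23.1 CPM in shCBX8, 15.6 in shCBX7 and 15.99 in shCTR libraries, whereas mean Rfc4 was 4.88 CPM in shCBX8, 8.04 in shCBX7 and 6.94 in shCTR libraries. Mean Rfc5 was 3.93 CPM per kilobase in shCBX8, 5.94 in shCBX7 and 5.58 in shCTR libraries. The 5 subunits form 1 complex, and the estimate for Rfc1 stands apart from the other 4 only as a description, since no test of that difference was made.

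Among the genes for Okazaki fragments and single-stranded DNA, Fen1 had 30.4, 26.7 and 35.0 CPM in shCBX8, 25.1, 17.2 and 17.8 CPM in shCBX7 and 14.6, 8.52, 19.9 and 17.8 CPM in shCTR libraries. The shCBX8 libraries were above all 7 others. Fen1 (ENSMUSG00000024742, chromosome 19, 10199132 to 10204169, minus strand, GRCm38) rose 2.02-fold in shCBX8 against shCTR (log2 fold change 1.01, SE 0.27, adjusted p = 0.0215). Tmem258 and Gm10143 overlap Fen1 on the opposite strand, and with unstranded counts the adjusted p was 0.205. Lig1, the ligase that seals the fragments, had 14.5, 17.6 and 16.9 CPM in shCBX8, 15.8, 15.3 and 15.1 CPM in shCBX7 and 14.9, 13.7, 16.7 and 12.9 CPM in shCTR libraries, with overlap throughout (log2 fold change of shCBX8 against shCTR 0.17, adjusted p = 0.373). Rpa1 and Rpa2, subunits of the single-strand binding protein RPA, had -0.07 and -0.05 in shCBX8 and 0.35 and 0.30 in shCBX7 against shCTR, none called.

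For nucleotide supply, all 4 nucleotide synthesis genes had negative estimates in shCBX8 against shCTR, and none was called. Tk1, thymidine kinase, had 4.23, 6.37 and 2.13 CPM in shCBX8, 6.85, 9.12 and 7.32 CPM in shCBX7 and 8.12, 6.36, 9.08 and 4.75 CPM in shCTR libraries. Its log2 fold change of -0.74 (SE 0.37, adjusted p = 0.146) was the lowest of the 40, and the shCBX8 libraries overlapped the shCTR ones. Tyms, thymidylate synthase, had 12.6, 16.7 and 9.65 CPM in shCBX8, 16.4, 17.9 and 16.05 CPM in shCBX7 and 15.9, 20.7, 16.6 and 12.2 CPM in shCTR libraries (shCBX8 against shCTR -0.33, SE 0.22, adjusted p = 0.272), and a pseudogene, Tyms-ps, may share its reads. Rrm1 and Rrm2, the ribonucleotide reductase subunits, had -0.28 and -0.13. Slbp, which binds the stem-loop of histone mRNAs, had 37.8, 41.9 and 37.5 CPM in shCBX8, 46.8, 41.3 and 39.4 CPM in shCBX7 and 32.2, 34.0, 40.5 and 37.3 CPM in shCTR libraries, and the groups overlapped (shCBX8 against shCTR 0.12, adjusted p = 0.453).

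Of the 3 G1/S regulators among the 40, E2f1, a transcription factor of S phase entry, had 18.6, 24.9 and 19.4 CPM in shCBX8, 23.4, 25.5 and 14.4 CPM in shCBX7 and 20.1, 19.99, 14.5 and 16.7 CPM in shCTR libraries. Ccne1, a cyclin E that activates CDK2, had 19.8, 23.6 and 16.1 CPM in shCBX8, 28.6, 25.5 and 14.6 CPM in shCBX7 and 17.8, 13.6, 16.7 and 20.8 CPM in shCTR libraries. Ccne2, the other cyclin E, had 8.23, 7.40 and 4.60 CPM in shCBX8, 17.0, 10.9 and 7.61 CPM in shCBX7 and 8.51, 5.36, 10.3 and 10.3 CPM in shCTR libraries. All 3 overlapped between groups, and shCBX7 replicate 5 was well below the other shCBX7 libraries in each. Their log2 fold changes in shCBX8 against shCTR were 0.23 (SE 0.22) for E2f1, 0.20 (SE 0.25) for Ccne1 and -0.36 (SE 0.34) for Ccne2, with adjusted p of 0.432, 0.554 and 0.443.

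**Figure D3:**
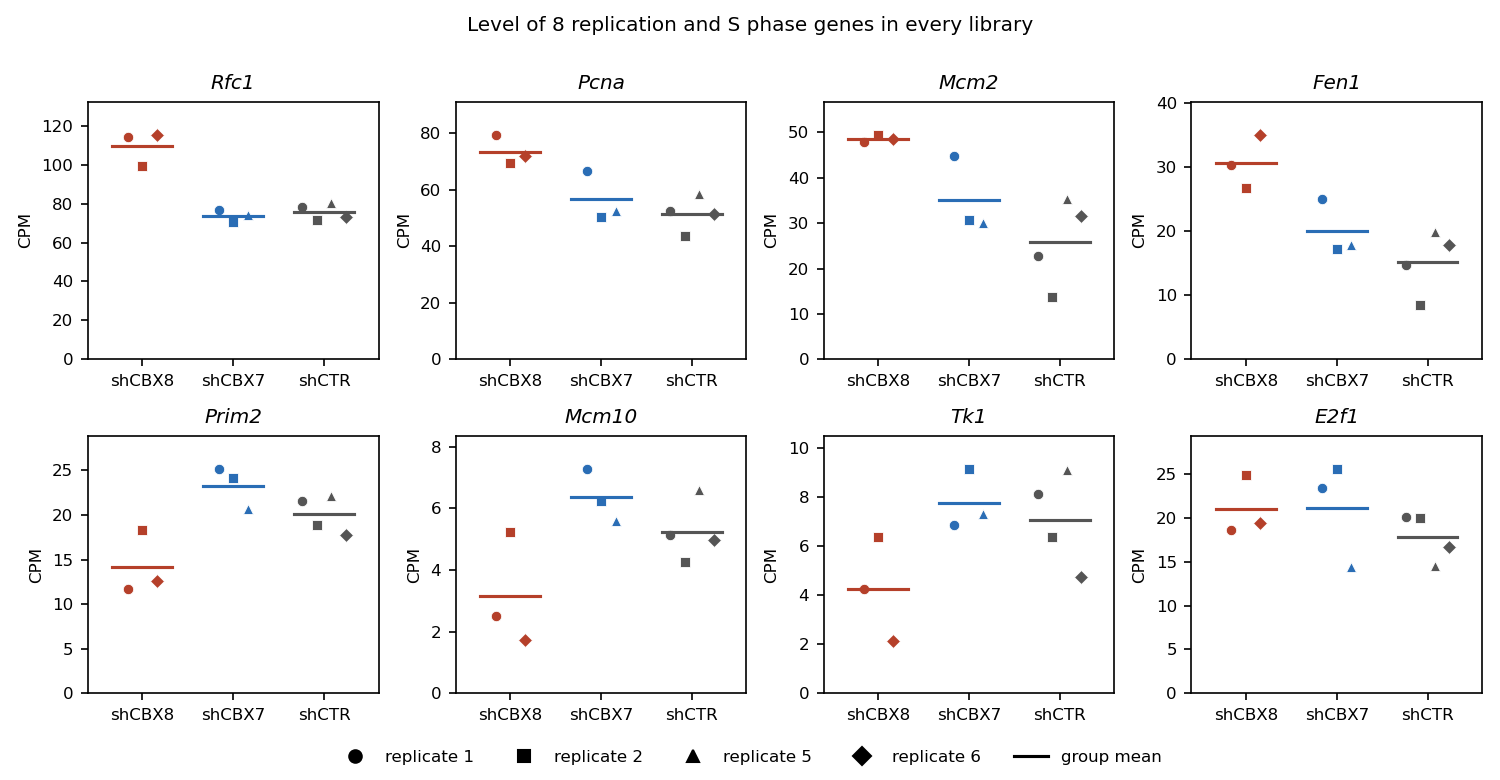
Level in CPM (y axis, from 0) of 8 of the genes in every shCBX8, shCBX7 and shCTR library; symbols are replicate numbers and lines group means. For Rfc1, Pcna, Mcm2 and Fen1 every shCBX8 library lies above every shCTR library, and for Prim2, Mcm10 and Tk1 shCBX8 replicate 2 lies within the shCTR range while replicates 1 and 6 lie lower.

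Of the 4 calls against shCTR, Rfc1 passed the threshold in each of the 20 other settings tried, with an adjusted p of at most 0.0430. Mcm2, Pcna and Fen1 lost their calls when shCTR replicates 1 and 2, the libraries with the most background, were both left out (log2 fold change 0.52, 0.41 and 0.69, adjusted p = 0.114, 0.124 and 0.0757), and when the background level was a covariate. With the covariate, Mcm2 was estimated at 0.33 (SE 0.45, adjusted p = 0.643), Pcna at 0.45 (SE 0.24, adjusted p = 0.219) and Fen1 at 0.68 (SE 0.46, adjusted p = 0.338). The SEs were larger than without the covariate. Every shCTR library had more background than any shCBX8 or shCBX7 library, so this setting cannot fully separate background from group. Single libraries also ended calls: Mcm2 without shCBX8 replicate 1, 2 or 6, shCBX7 replicate 2 or shCTR replicate 1 (adjusted p 0.0528 to 0.0989), Pcna without shCBX8 replicate 1 or 6 or shCTR replicate 1 or 2 (0.0508 to 0.0796), and Fen1 without shCBX8 replicate 1 or 6 or shCTR replicate 1 (0.0555 to 0.0823). Without shCBX8 replicate 2 there were 3 higher and 4 lower genes, the lower ones being Cdc6 (log2 fold change -1.02), Mcm10 (-1.31), Prim2 (-0.73) and Tk1 (-1.15). With library size as the only scaling the median of all genes moved to 0.17 and 67.2% of all calls were higher, against 51.6% in the fit reported here.

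The 40 genes did not all vary in the same way among the shCBX8 libraries. The 18 fibroblast markers summed to 3669 CPM in shCBX8 replicate 2, against 702 and 554 CPM in replicates 1 and 6, and replicate 2 was the highest shCBX8 library for 27 of the 40 genes and replicate 6 the lowest for 24. The ratio of replicate 2 to replicate 6 was above 1.5 for 12 genes and above 2 for 5: Cdc6 (3.33), Rrm2 (3.08), Mcm10 (3.04), Tk1 (2.99) and Cdc45 (2.04). It was below 1 for 10 genes. Among shCTR libraries, replicate 2, which had the highest fibroblast sum (35976 CPM), was the lowest of all 10 libraries for 16 of the 40 genes. Replicate 2 also had the highest fibroblast sum among shCBX7 libraries (20056 CPM), and was the lowest of all 10 for 1 of the 40 genes. The highest fibroblast sum thus fell on replicate 2 in every group. The median coefficient of variation of the 40 genes was 15.6% in shCBX8, 10.99% in shCBX7 and 20.9% in shCTR libraries. Summed over the 40 genes the level was 984 to 1107 CPM in shCBX8, 1007 to 1171 CPM in shCBX7 and 756 to 1097 CPM in shCTR libraries, so the groups overlapped.

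In shCBX7 libraries, compared with the same shCTR libraries as above, none of the 40 genes was called, and neither was any other gene (0.00% of 16669). Estimates of 37 of the 40 were positive, with a median log2 fold change of 0.24, against 0.00 and 8337 of 16669 positive over all genes. The smallest unadjusted p was that of Rfc2 (0.00657), and 2 of the 40 were higher and none lower at an unadjusted p under 0.05, against 1.01% and 4.84% of all genes (975 in both directions). Levels of Cdc45, Rfc2 and Rpa1 were higher in every shCBX7 library than in any shCTR library, which holds for 1.70% of all genes. The estimates ran from -0.08 for Rrm1 to 0.51 for Cdc45, and the 95% interval of an estimate reached 0.49 to each side at the median. The median was 0.14 without shCTR replicates 1 and 2 and 0.05, with 21 of 40 positive, with the background covariate, and DESeq2 called 91 of all genes and none of the 40.

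Of the 40 genes, 1 was higher and 3 were lower in shCBX8 than in shCBX7 libraries (28.6% of all genes called, 15.3% higher and 13.3% lower). Rfc1 was higher (log2 fold change 0.57, SE 0.10, adjusted p = 0.00645), by the values given above. Prim2 was lower (-0.71, SE 0.19, adjusted p = 0.0244). Rfc4 had 6.18, 6.92 and 5.63 CPM in shCBX8 libraries, against 10.5, 9.36 and 10.98 CPM in shCBX7 libraries, with no overlap (-0.72, SE 0.23, adjusted p = 0.0462), and Eif4a2 overlaps it on the opposite strand. Rpa1 had 67.2, 71.9 and 65.6 CPM in shCBX8 libraries, against 98.8, 88.8 and 86.6 CPM in shCBX7 libraries, also without overlap (-0.42, SE 0.14, adjusted p = 0.0491), and Gm47300 overlaps it on the same strand. Estimates were negative for 27 of the 40 genes, with a median of -0.21, against 0.00 over all genes. All 4 nucleotide genes, all 4 polymerase delta and epsilon genes and the cyclins Ccne1 and Ccne2 were among the negative ones. E2f1 stood at -0.01, and its sign changed in 7 of the 20 other settings. Libraries did not overlap for 6 higher and 8 lower genes, against 25.6% and 22.6% of all genes, and the unadjusted p was under 0.05 for 2 higher and 6 lower genes, against 22.4% and 20.3%. Rfc1 passed in each of the 20 other settings (adjusted p at most 0.0344), whereas Prim2 passed in 12, Rfc4 in 9 and Rpa1 in 5. Single libraries ended the calls of Prim2 (shCBX8 replicate 1 or 6, shCBX7 replicate 1 or 2 left out, adjusted p 0.0564 to 0.0958), Rfc4 (shCBX8 replicate 1 or 6 or any shCBX7 library, 0.0631 to 0.148) and Rpa1 (any shCBX8 or shCBX7 library, or shCTR replicate 1 or 5, 0.0525 to 0.154).

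Genes next to the 40 in the same processes were read from lists of related genes in shCBX8 against shCTR. Calls in these lists, and in the G1/S, mitosis and cell type lists, were not checked in the other settings. Over all genes, 5478 were called in the reported fit, 2409 without shCTR replicates 1 and 2 and 2464 with the background covariate. Of 32 other replication factors, 9 were higher and 3 lower (median log2 fold change 0.17), where 17.0% and 15.9% of all genes were called higher and lower. The 4 with the smallest p were Rnaseh2a, a subunit of the nuclease that removes RNA from DNA (1.19, adjusted p = 0.00124), the origin recognition subunit Orc4 (0.87, adjusted p = 0.00370), Rnaseh2c (0.85, adjusted p = 0.00436) and the polymerase epsilon subunit Pole3 (-0.46, adjusted p = 0.0106). Rnaseh2a had 46.7, 42.7 and 49.1 CPM in shCBX8 libraries, against 22.6, 18.6, 21.6 and 17.97 CPM in shCTR libraries, with no overlap. Of 12 chromatin assembly genes, 4 were higher and none lower (median 0.25, with the same 17.0% and 15.9% over all genes): Supt16 of the FACT histone chaperone (0.47), Hells (0.89), Chaf1b of CAF-1 (0.72) and Nasp (0.47), with adjusted p of 0.0251 to 0.0498. Of 13 other nucleotide genes, 4 were higher and none lower (median 0.33), beside those same shares. Among them were Rrm2b, the p53-regulated ribonucleotide reductase subunit (1.08, adjusted p = 0.00333), deoxycytidine kinase Dck (1.11, adjusted p = 0.0215) and thymidylate kinase Dtymk (0.31, adjusted p = 0.0473). None of these genes was called in shCBX7 against shCTR.

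Rrm2b and its S phase counterpart Rrm2 differed in their values. Rrm2b had 77.7, 48.8 and 71.1 CPM in shCBX8 libraries, against 29.5, 26.3, 35.1 and 33.8 CPM in shCTR libraries, and the groups did not overlap. Rrm2 had 16.4, 21.9 and 7.12 CPM in shCBX8 libraries, against 14.8, 7.96, 23.8 and 19.6 CPM in shCTR libraries, and the groups overlapped. No test of the difference between the 2 genes was made.

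Of 36 G1/S regulators outside the 40, 5 were higher and 13 lower in shCBX8 against shCTR (median -0.41), beside 17.0% and 15.9% of all genes. By smallest p they were the pocket protein Rbl2 (-0.54, adjusted p = 0.00333), the CDK phosphatase Cdc25a (0.86, adjusted p = 0.00351), the E2F factor E2f5 (1.34, adjusted p = 0.00377) and the DREAM complex subunit Lin54 (-0.66, adjusted p = 0.00550). Lower calls included both genes that drive and genes that restrain S phase entry, such as Cdk2 (-0.86) and Skp2 (-1.02) on the one hand and the inhibitor Cdkn1b (-1.12) on the other, named here after their values were seen. In shCBX7 against shCTR none of the 36 was called.

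Mitosis genes, expressed in the next stage of the cycle, were read beside the 40. Of 36 in shCBX8 against shCTR, none was higher and 2 were lower, Ncapd2 of condensin (-1.35, adjusted p = 0.0288) and Incenp of the chromosomal passenger complex (-0.77, adjusted p = 0.0408), beside 15.9% of all genes called lower. Estimates were negative for 34 of the 36, with a median of -0.76, whereas those of the 40 replication genes had a median of 0.02. The proliferation marker Mki67 had 15.1, 26.9 and 4.13 CPM in shCBX8 libraries, against 72.9, 25.05, 48.6 and 37.2 CPM in shCTR libraries (log2 fold change -1.58, SE 0.56, adjusted p = 0.0543), with shCTR replicate 2 within the shCBX8 range. Summed mitosis RNA was 479, 599 and 322 CPM in shCBX8, 839, 887 and 746 CPM in shCBX7 and 951, 409, 807 and 605 CPM in shCTR libraries. The shCBX8 libraries were thus below all shCBX7 libraries and overlapped the shCTR range through replicate 2 of shCTR. Against shCBX7, all 36 estimates were negative (median -1.13), 3 were called lower (Incenp, Ncapd2 and Mki67), and 32 did not overlap, beside 13.3% of all genes called lower and 22.6% without overlap and lower. In shCBX7 against shCTR 35 of 36 were positive (median 0.25) and none was called.

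**Figure D4:**
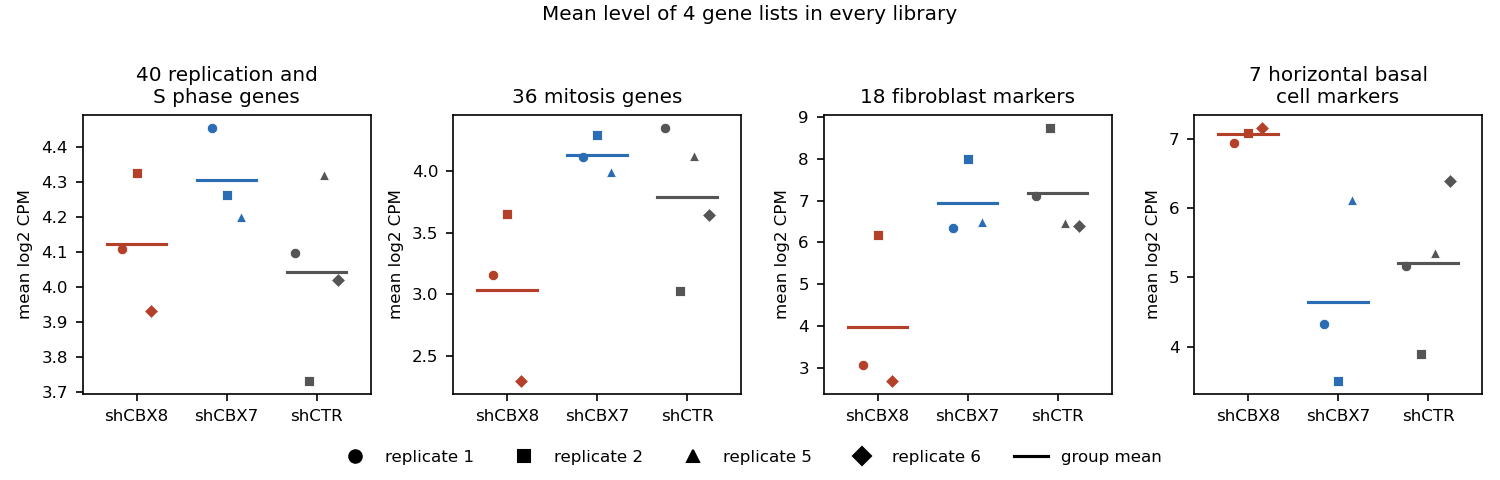
Mean log2 CPM (y axis) of 4 gene lists in every shCBX8, shCBX7 and shCTR library; symbols are replicate numbers and lines group means. The replication genes overlap between the groups, the mitosis and fibroblast lists are lower and the horizontal basal list is higher in shCBX8 on average, and shCTR replicate 2 is lowest for replication and highest for fibroblast genes.

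The promoter words were set beside the calls. None of the 5 promoters of the called genes in shCBX8 against shCTR held an E2F-type word, against 12 of the 32 promoters of the other genes. Mcm5 and Mcm6, with the overlapping words printed above, had log2 fold changes of 0.11 and 0.48 in shCBX8 against shCTR. Mcm2 and Rfc1, with none, had 0.91 and 0.53, but these were picked because they were called. Over all genes with a word the estimates ran from -0.37 for Cdc6 to 1.14 for Cdt1. Over the genes with a promoter given but no word they ran from -0.74 for Tk1 to 1.01 for Fen1. With 5 promoters of called genes this is a count with no test, and nothing is drawn from it about E2F binding.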

How the data were processed

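The authors deposited raw read counts per gene for each library, in unstranded, forward-strand and reverse-strand columns, and the reverse-strand counts were used. Per the submitters' processing notes, reads were handled with bcl2fastq 2.17, Trim Galore 0.4.3 and STAR 2.5.0a on mm10. No source used here names the annotation release. Rows that name no gene were left out. Unmapped reads were 9.83 to 21.7% in shCTR, 5.03 to 6.20% in shCBX7 and 7.28 to 7.81% in shCBX8 libraries. Mapped reads that matched no gene were 20.4 to 23.6%, 12.5 to 15.0% and 15.4 to 18.6% in the same order. Both shares were higher in every shCTR library than in any other. Comparisons against shCTR cannot be told apart from these differences, whose part in the results was not tested. GENCODE M21 gave symbols to 40217 of 41091 identifiers.

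Genes were filtered with filterByExpr (minimum count 10), scaled by TMM and tested with edgeR 4.0.16's quasi-likelihood test over all 10 libraries, group as the only factor, and p-values were adjusted by Benjamini-Hochberg over all 16669 genes (threshold 0.05). The fit was tested on simulated data. Other settings were DESeq2 1.42.0, RLE scaling, scaling to library size alone, unstranded counts, no filter on low counts, genes averaging 1 CPM or more, 2 groups only, a replicate block, each library left out, shCTR replicates 1 and 2 left out, and background as a covariate. The design text of the series gives 3 replicates per treatment, the labels 4 shCTR libraries. Every library value is printed for up to 2 genes per role with the smallest p, the extreme estimates and preset genes, and list genes are named by the 4 smallest p. Members and lists were chosen with earlier results of these data known. Counts of same-group libraries differed beyond sampling noise in all 12 pairs. The chi-square per degree of freedom was 25.5 for shCBX8 replicates 1 and 6, the most alike pair, and 95.8 to 393 for the others. The values of 1 gene that the naming rule selects are not reported here.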

Additional observations from a re-analysis of the deposited data

Results flagged for a closer look

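Rfc3, a small subunit of the clamp loader, had 16.1 CPM in shCTR replicate 2, while the other 3 shCTR libraries lay at 23.4 to 23.7 CPM. The gap to the others was above Dixon's 95% critical ratio for 4 samples. It was the only 1 of the 40 genes so marked in the shCTR group, and chance marks about 1 in 20 groups. The same library was the lowest of all 10 for 16 of the 40 genes.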

How the results depend on the processing

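Over 20 other settings, none of the called genes among the 40 changed direction in the 2 comparisons that called any. Of 800 estimates per comparison, the sign of uncalled genes changed in 57 in shCBX8 against shCTR, 47 in shCBX7 against shCTR and 18 in shCBX8 against shCBX7. In shCBX8 against shCTR (4 of the 40 called), the count was 7 with DESeq2 and 1 to 7 with 1 library left out. With DESeq2, 5 were higher and 2 lower, Prim2 (-0.50, adjusted p = 0.0276) and Rfc5 (-0.51, adjusted p = 0.0330). Without shCTR replicate 6, 5 were higher and 1 lower, again Rfc5 (-0.62, adjusted p = 0.0274, edgeR). The count was 1 without shCTR replicates 1 and 2 and 1 with the background covariate. Rfc1 was the 1 that remained in both. Over all genes (5478 called) the count was 2261 to 6193 with 1 library left out, 2409 without shCTR replicates 1 and 2 and 2464 with the background covariate. In shCBX7 against shCTR no member was called in any setting, while all genes gave 91 calls with DESeq2 and 0 to 41 with 1 library left out. In shCBX8 against shCBX7 (4 called, 1 higher and 3 lower), the count was 2 with library size only and 2 with the background covariate, in both cases 2 higher and 0 lower, so that none of the 3 lower calls remained. It was 2 without the filter and 1 to 9 with 1 library left out. All genes (4762 called) gave 1784 to 6005 with 1 library left out. The cause of these changes was not tested.

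With the replicate number as a block, 5 of the 40 genes were called in shCBX8 against shCTR (Mcm6 was added) and 6036 of all genes, 0 and 0 in shCBX7 against shCTR, and 1 and 4661 in shCBX8 against shCBX7. Same-numbered libraries correlated at -0.08 to 0.69 in their deviations from group means. The replicate 2 libraries correlated with each other at 0.26 to 0.69, and with no other number above 0.01. Deviations within a group cancel out for each gene, so a positive match with a library lowers the correlations with the others of its group. The lack of other matches is therefore not a separate observation. Replicates 5 of shCBX7 and shCTR were each other's best match (0.31). By contrast, shCBX7 replicate 1 correlated at -0.08 with shCTR replicate 1 and at 0.47 with shCTR replicate 6. The numbers were not used as pairs in the reported fit, which therefore leaves out any effect that same-numbered libraries share. Without scaling beyond library size, the median of all genes moved by 0.15 in shCBX8 against shCBX7 and 67.1% of calls were higher, against 53.5%. The precision limits calls: at the median of the 40 genes, the 95% interval extended 0.49 (log2) to each side against shCTR and 0.53 in shCBX8 against shCBX7.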
